A study of Mus musculus with 10 samples.

Results

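The tiles described here are the 1000 bp stretches of the mouse autosomes whose DNA methylation level spread most widely over the 10 library columns of a reduced representation bisulfite sequencing table. They were chosen by their measured levels: a tile was called variable where its highest column exceeded its lowest by 25 percentage points or more. Tiles started at multiples of 1000, and a tile was eligible with 5 or more cytosine positions and 100 or more summed reads in each column. Of 118846 eligible tiles, 10885 were variable, which is 9.16%. The level of a tile is its methylated calls summed over positions divided by its summed coverage, in percent, and a read counts once in that coverage for each position it covers.

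The study sampled mouse embryos of embryonic day 7.5, with 5 samples titled arsenic and 5 titled control. The labels give no strain, arsenic dose, route or time of exposure, and do not say whether embryos were pooled. The 10 sets of counts carry only the numbers 1 to 10, so no set was tied to a sample or to a group, each set is called a library column, and arsenic was not compared with control. Any difference between the groups lies within the ranges given below and cannot be told apart from other differences between columns. The labelled tissue was not checked against markers, since DNA methylation and no RNA was measured.

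In mammals, methylation of the cytosine in CpG dinucleotides is erased in the early embryo and laid down again by DNMT3 enzymes around implantation, so that the gastrulating embryo has reached high levels over most of its genome while CpG islands at promoters remain free of it. Imprinted genes carry methylation on the copy from a single parent, which passes through that erasure and is held by factors such as ZFP57, a zinc finger protein that binds methylated TGCCGC. Extraembryonic tissues of the same conceptus hold less methylation than the embryo proper. In DNA of such embryos a level averages over cells and over both parental copies, so a different mix of cells and a different level within cells cannot be told apart.

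The promoter windows below belong to variable tiles that hold the transcription start of a listed gene, and are shown for the CpGs around those starts, measured or not. Each runs from 250 bp before to 50 bp after the start, 5′ to 3′ on the gene's strand, as taken from RefSeq on GRCm38, with each CpG in capitals. Plagl1, an imprinted zinc finger gene of growth control, has its window at chr10:13090582-13090881 on the plus strand. Gnas, an imprinted locus that encodes the stimulatory G protein alpha subunit, has its window at chr2:174284070-174284369 on the plus strand. Asz1, a germline gene needed for piRNA production, has its window at chr6:18109012-18109311 on the minus strand. Mest, an imprinted gene expressed from the paternal copy, has its window at chr6:30737800-30738099 on the plus strand.
Plagl1: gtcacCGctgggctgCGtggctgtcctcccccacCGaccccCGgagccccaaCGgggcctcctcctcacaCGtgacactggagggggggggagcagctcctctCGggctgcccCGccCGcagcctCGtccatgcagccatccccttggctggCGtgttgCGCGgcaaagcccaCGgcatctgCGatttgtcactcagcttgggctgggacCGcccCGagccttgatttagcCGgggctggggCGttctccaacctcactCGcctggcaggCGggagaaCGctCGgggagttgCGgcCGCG
Gnas: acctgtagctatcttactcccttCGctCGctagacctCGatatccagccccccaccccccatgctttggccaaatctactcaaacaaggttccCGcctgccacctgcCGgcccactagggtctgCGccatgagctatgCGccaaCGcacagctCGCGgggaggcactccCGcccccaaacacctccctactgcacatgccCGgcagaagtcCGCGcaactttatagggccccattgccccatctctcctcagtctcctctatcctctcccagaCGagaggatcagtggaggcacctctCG
Asz1: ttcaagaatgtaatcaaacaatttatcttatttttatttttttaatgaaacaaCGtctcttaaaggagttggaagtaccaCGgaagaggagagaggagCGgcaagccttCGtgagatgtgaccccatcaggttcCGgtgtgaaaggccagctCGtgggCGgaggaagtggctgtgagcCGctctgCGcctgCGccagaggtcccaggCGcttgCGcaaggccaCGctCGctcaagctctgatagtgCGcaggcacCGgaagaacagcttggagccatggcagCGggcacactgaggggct
Mest: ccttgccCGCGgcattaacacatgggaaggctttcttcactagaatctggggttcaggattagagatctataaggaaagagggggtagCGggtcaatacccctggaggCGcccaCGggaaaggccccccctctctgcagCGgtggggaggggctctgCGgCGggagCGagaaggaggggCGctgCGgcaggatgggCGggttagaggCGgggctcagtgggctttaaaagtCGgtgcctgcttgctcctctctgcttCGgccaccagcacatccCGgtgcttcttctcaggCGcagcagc
The windows held 26 CpGs at Plagl1, 16 at Gnas, 17 at Asz1 and 17 at Mest, against a median of 7 over the 31396 autosomal promoter windows. The letters TGCCGC, searched on both strands, occurred 1 time at Plagl1, 0 times at Gnas, 1 time at Asz1 and 2 times at Mest, in each case on the antisense strand. Of all autosomal windows, 11.6% held them. The letters include a CpG, and that share was not matched for the number of CpGs. Windows of other listed genes in such tiles, not printed, held 5 CpGs at Plet1, 4 at Sparc, 4 at Hnf4a and 11 at Pou5f1. None of these held TGCCGC. Hymai, whose window overlaps that of Plagl1, held 27 CpGs and TGCCGC 1 time. The printed windows thus do not stand for all windows of this kind. Measured positions numbered 21 in the Plagl1 window, 7 in the Gnas window, 13 in the Asz1 window and 0 in the Mest window.

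Most variable tiles lay just above the limit. Their range from lowest to highest column had a median of 28.5 points and quartiles of 26.5 and 31.8 points, against a median of 14.4 points over all eligible tiles, and 63.2% of them lay between 25 and 30 points. A range of 40 points or more occurred in 401 tiles and of 50 points or more in 45 tiles. Just inside the limit lay tiles within Cd28, within Armc3 and 68254 bp from Tbl1xr1, and just outside it lay tiles within Rpap3, within Ldlrad3 and 7019 bp from Fam186b, all at 25 points when rounded to whole points. These values are what the rule selected on and describe the tiles without a test.

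Few variable tiles had many columns far apart. With the highest and the lowest column set aside, the range between the second highest and the second lowest had a median of 17.2 points, and it reached 25 points in 788 tiles, or 7.24%. A single column stood apart from the other 9 in 9.44% of variable tiles and in 7.18% of all eligible tiles, by the 95% criterion of Dixon's test for 10 values. That column was the highest in 434 of these variable tiles and the lowest in 593. The criterion was applied to the levels on which the tiles were chosen, so these shares describe the tiles without a test.

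Variable tiles lay at intermediate methylation. The median level over the columns was between 20 and 80% in 98.1% of variable tiles, against 73.3% of all eligible tiles. The share of eligible tiles that were variable was largest, at 17.1%, where the median level was 40 to 50%, and it was 0.236% under 20% and 1.69% above 80%. Of the 18368 tiles under 10%, the level of most CpG islands, 3 were variable. The measure is bounded at 0 and 100%, so a tile near either bound has less room for a wide range.

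Variable tiles were also shallow. Their shallowest column had a median of 163 summed reads, against 302 in all eligible tiles, and they had a median of 8 positions, against 10. The share that was variable was 27.2% where the shallowest column had 100 to 150 summed reads, 3.85% at 300 to 500, 0.900% at 500 to 1000 and 0.0415%, or 4 of 9642 tiles, at 1000 or more. With 300 or more reads in each column 1290 of 59903 tiles were variable, which is 2.15%. The share was lower in each deeper class also among tiles of intermediate level, as the plot of the share by depth shows.

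**Figure D1:**
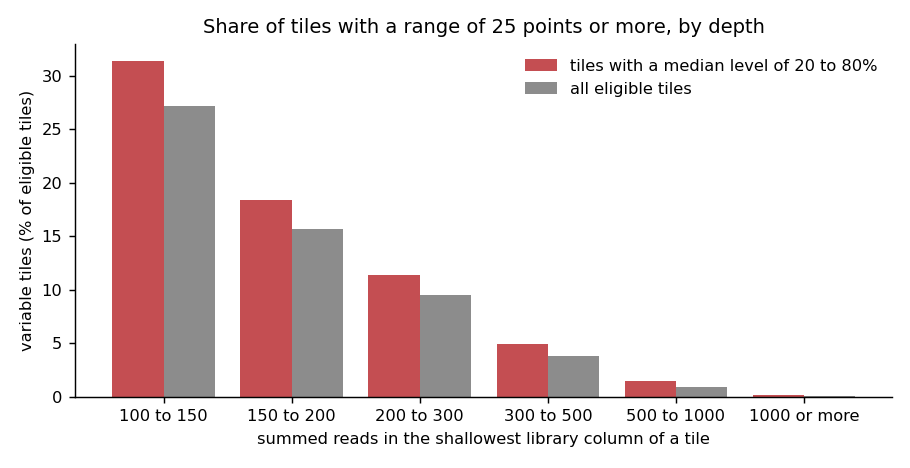
Share of eligible tiles that were variable (vertical axis, percent) by the summed reads of the shallowest library column (horizontal axis, classes), for tiles with a median level of 20 to 80% and for all eligible tiles. Bars are shares with no error bar; among tiles of intermediate level the share is 31.4% at 100 to 150 reads and 0.160% at 1000 reads or more.

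Within a tile, the column with the fewest reads was the highest or the lowest in 29.9% of variable tiles and in 25% of other eligible tiles. The 95% Wilson intervals of the highest and the lowest column, with each call taken as independent, were apart in all 10885 variable tiles, which a gap of 25 points with 100 or more reads in each column fixes in advance. Calls of 1 read at neighbouring positions are not independent. With the mean reads per position as the number of observations, the intervals were apart in 2814 variable tiles, or 25.9%. Both kinds of interval cover counting error only, and the columns were chosen as extremes of 10.

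The strands gave a reading that the choice of columns did not use. In RRBS both strands of a fragment are amplified and read separately, and 82602 tiles had 3 or more positions and 50 or more reads in each column on each strand. In the 21106 of these whose plus-strand range was 25 points or more, the median plus-strand range was 30.5 points, and the same pair of columns differed on the minus strand by a median of 1.43 points. The direction was the same on the minus strand in 55.2% of these tiles, against 54.2% of all tiles measured on both strands. The minus-strand difference reached 25 points in the same direction in 2.89% and in the opposite direction in 1.82% of the chosen tiles, against 1.44% and 0.903% of all.

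**Figure D2:**
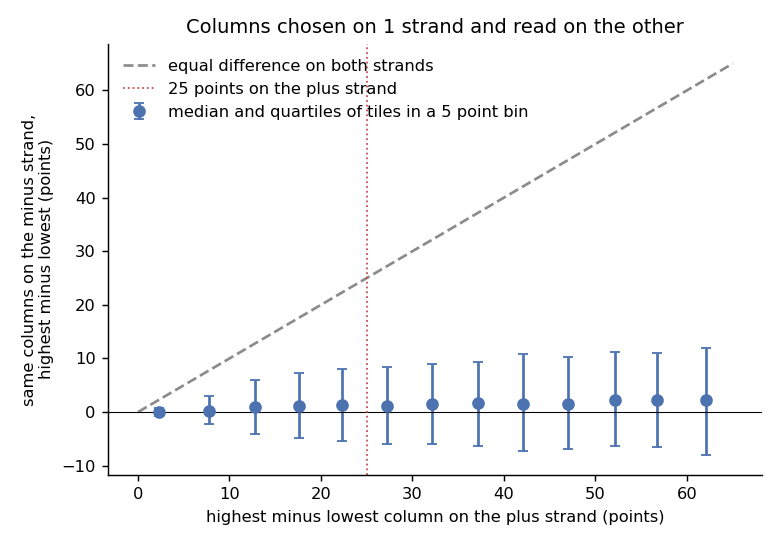
Difference on the minus strand (vertical axis, points) between the columns that were highest and lowest on the plus strand, by their plus-strand range (horizontal axis, points). Dots and bars are the median and quartiles over tiles in bins of 5 points; the medians lie between 0 and 2.31 points across all bins, far below the dashed line of equal differences.

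A wide range on one strand was thus followed by a median difference near 0 between the same columns on the other, with quartiles on either side of 0 in each bin from 10 points up. Chosen on the minus strand and read on the plus strand, 21489 tiles gave a median of 30.4 points on the minus strand and 1.32 points on the plus strand, with the same direction in 55%. Tiles with 500 or more reads in each column gave 29.1 and 1.38 points, with the same direction in 56.8% of 2416 tiles against 54.8% of all such tiles. At intermediate levels the same direction was found in 55.2% of chosen tiles and in 55.2% of all. Mean levels over eligible tiles were lowest in column 7, at 48.4%, and highest in column 1, at 51.8%, and the part of such shifts in the shared direction was not tested.

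The rule for variable tiles adds both strands, so agreement within them is partly set by the choice and is given as a description. Of 10885 variable tiles, 4476, or 41.1%, were measured on both strands, and in 98.7% of those the highest column exceeded the lowest on each strand. The smaller of the pair of strand differences had a median of 22.1 points and the larger 34.96 points, and both reached 25 points in 1314 tiles, or 29.4%. Pearson's r between strands across the 10 columns of a tile had a median of 0.337 in variable tiles, 0.0667 in tiles chosen on the plus strand and 0.0543 in all tiles on both strands.

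Few variable tiles had an eligible tile beside them. Without matching for depth or level, those adjacent tiles were variable more often than tiles beside others. Of 2680 eligible tiles next to a variable tile 384, or 14.3%, were variable, against 4.91% of those next to other eligible tiles and 9.16% of all eligible tiles. Adjacent variable tiles formed 182 runs of 2 and 5 runs of 3, and the other 10506 had no variable tile beside them, of which 8413 had no eligible tile beside them. In eligible tiles next to a variable tile, the columns that were highest and lowest in the variable tile differed by a median of 2.72 points, in the same direction in 63.2% of 2680 cases. Next to other eligible tiles the same reading gave 0.513 points and the same direction in 58.7%. At 2000 bp the medians were 0.602 and 0.274 points, with the same direction in 56.4% and 53.6%. A read can cross the border of adjacent tiles, and its part in these values was not tested. Tiles beside variable tiles and tiles beside others were not matched for depth or median level. The share that was variable differed widely with both, as given above, and their part in these values was not tested either.

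Of the 5 runs of 3 tiles, the first 3 in genome order were named, and they lay within Pxn, about 23072 to 25072 bp from Cebpa, and within Col1a1. Pxn encodes paxillin, a focal adhesion adaptor, and its tiles spanned chr5:115520000-115522999. Their highest columns were column 8 at 46.2%, column 1 at 45.7% and column 1 at 52.4%, and their lowest were column 6 at 20.4%, column 3 at 19.7% and column 7 at 21.8%. Col1a1 encodes a type I collagen chain, and its tiles spanned chr11:94945000-94947999. Column 2 was highest in the first of these tiles, column 6 in the next and column 4 in the last. The tiles near Cebpa, at chr7:35145000-35147999, had columns 7, 5 and 9 as their highest. The pair of extreme columns thus changed from tile to tile within each of these runs.

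Library columns took unequal parts. Column 9 was the highest in 2601 variable tiles, or 23.9%, against 17.2% of other eligible tiles, and in 70 of the 202 variable tiles with 500 or more reads. Column 1 was the highest in 1519 variable tiles and the lowest in 173. Column 7 was the lowest in 1898 and column 8 in 1694 variable tiles. Summed coverage was 86075573 in column 9 with 73509873 as the lowest total, in column 3, and 127743904 as the highest, in column 1. Column 9 thus had the lowest summed coverage after column 3, which was the highest in 9.6% of variable tiles. Mean levels over eligible tiles were highest in column 1, at 51.8%, column 9, at 51.03%, and column 10, at 50.96%. The part of depth and of mean level in the share of extremes of column 9 was not tested.

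**Figure D3:**
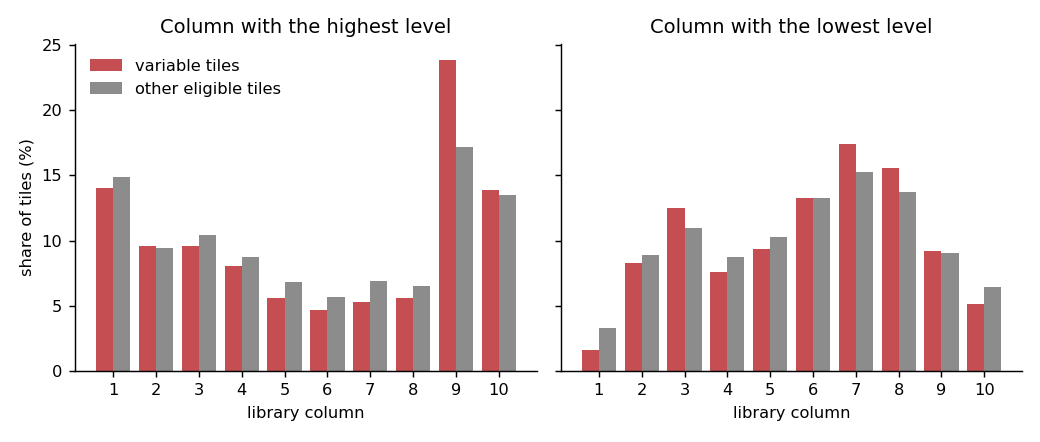
Share of tiles (vertical axis, percent) in which each library column (horizontal axis) had the highest level, on the left, or the lowest level, on the right, for variable tiles and for other eligible tiles. Column 9 is the highest in 23.9% of variable tiles and column 7 the lowest in 17.4%; the shares of other eligible tiles follow a similar order of columns.

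Variable tiles were fewer at gene ends before depth and level were matched. Within 1000 bp of a gene end lay 13.4% of variable tiles, against 26.5% of eligible tiles, and 41.4% lay outside genes, against 28.8%. The share that was variable was 4.64% at gene ends, 9.26% inside genes away from their ends and 13.1% outside genes, and 1.79% in tiles that hold a transcription start. Among tiles with a median level of 20 to 80% and 300 or more reads, of which 3.38% were variable, these shares were 3.14%, 3.08%, 3.93% and 2.98%. Over the autosomes the share ran from 8.31% on chromosome 19 to 10.7% on chromosome 6. The gene table holds neither exons nor UTRs, so tiles inside genes were not divided further.

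Of 90 eligible tiles at the ends of imprinted genes, 47 had a median level of 20 to 80%. At the ends of the 61 matched imprinted genes 8 of 90 eligible tiles were variable, or 8.89%. The share was 4.64% at all gene ends and 9.16% in all eligible tiles. With 300 or more reads and an intermediate median level, 4 of 31 imprinted gene-end tiles were variable, or 12.9%. With the same limits, the share was 3.14% at all gene ends and 3.38% in all eligible tiles. Over the other gene lists it ran from 0% to 14.3%, the latter 1 of 7 tiles by visceral endoderm and yolk sac genes. At an intermediate level without the depth limit, 7 of 47 imprinted gene-end tiles were variable, or 14.9%. The share there was 10.7% at all gene ends, 12.3% in all eligible tiles and 0% to 26.7% over the other lists. Over the whole length of the matched imprinted genes, a reading added after the values were seen, 26 of 324 tiles were variable, or 8.02%. With 300 or more reads and an intermediate level 9 of 127 were variable, or 7.09%, against 3.38% of all such tiles. The median range of these 127 tiles was 14.4 points, against 13.97 points over all such tiles. Within 20 to 80% the tiles were not matched for level, with which the share varied as given above. With 500 or more reads the share was 4 of 114, or 3.51%, against 0.639% of all tiles at that depth. An intermediate level at that depth gave 5.71%, against 1.27%. Adjacent tiles of Grb10 are among these few tiles. Read from one strand to the other, imprinted gene ends gave the same direction in 13 of 24 tiles chosen on the plus strand and in 6 of 16 chosen on the minus strand. Inside imprinted genes these were 44 of 72 and 31 of 70 tiles. Over all tiles chosen the same way the direction was the same in 55.2% and 55%. Median differences on the other strand were 3.27 and -4.25 points at imprinted gene ends, and 3.42 and -0.601 points inside imprinted genes.

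The tile at the start of Plagl1 and Hymai, chr10:13090000-13090999, had 21 positions. Its level was 33.9% in the lowest column, column 5, a median of 48.8% and 74.0% in the highest, column 3, a range of 40.1 points. Column 3 stood above column 5 at 21 of 21 positions, by 29.3 to 56.4 points. The pair was chosen on the sum of these positions, and a read can cover several of them. The count is thus partly set by the choice and describes the tile only. The difference was 45.7 points on the plus strand and 44.0 points on the minus strand. All positions lie within 197 bp before the transcription start, in the window printed above. On the plus strand column 3 had a median of 16 reads per position and column 5 had 65.

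Grb10, an imprinted gene for an adaptor protein that restrains growth, held the deepest pair of adjacent variable tiles named here, both inside the gene and away from its ends. In chr11:12025000-12025999 the level was 35.8% in column 4, a median of 50.7% and 69.0% in column 2, with at least 1054 reads per column. Column 2 exceeded column 4 by 36.4 points on the plus strand and 31.0 points on the minus strand. It was higher at 30 of 30 positions, a count partly set by the choice of columns on these same positions. In the adjacent chr11:12026000-12026999 the level was 44.8% in column 5, a median of 56.0% and 72.9% in column 9. There column 2 stood at 57.9% and column 4 at 53.3%, so the pair that differed by 33.1 points in one tile differed little in the next.

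**Figure D4:**
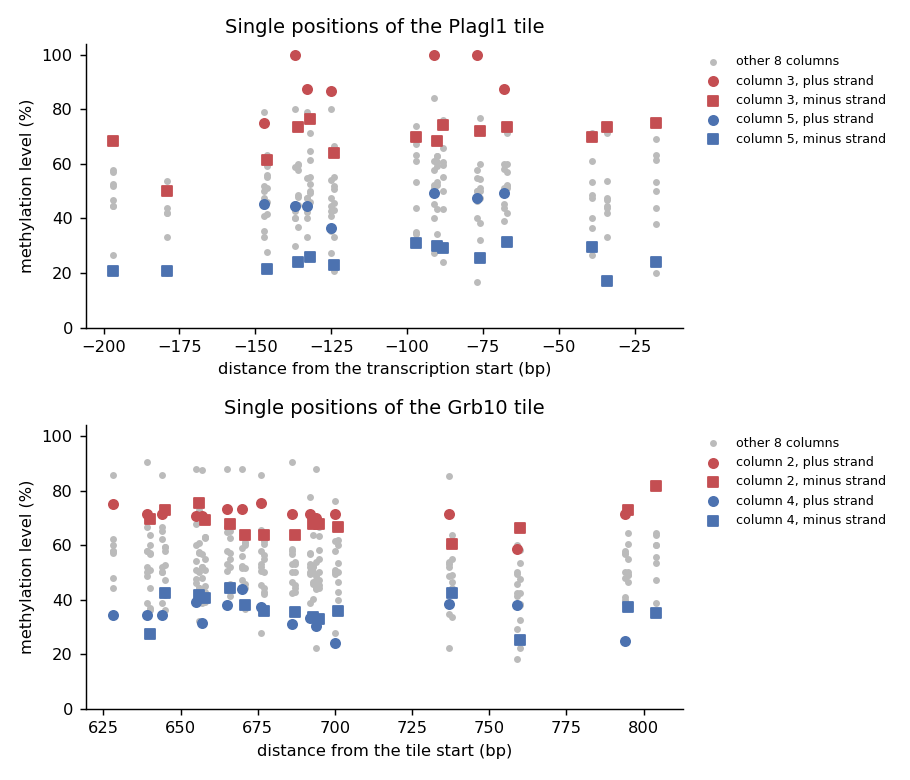
Methylation level (vertical axis, percent) of single cytosine positions in the Plagl1 tile, by distance from the transcription start (bp), and in the Grb10 tile with 1054 or more reads per column, by distance from the tile start (bp). Red marks the highest and blue the lowest column, circles the plus and squares the minus strand, and grey the other 8 columns. Red lies above blue at all 21 positions of Plagl1 and all 30 of Grb10, the positions on which these columns were chosen.

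The other imprinted gene ends showed less even strands where both could be read. At chr7:143295000-143295999, by an end of Kcnq1ot1, the antisense RNA that silences its cluster in cis, the level was 28.1% in column 7, a median of 47.1% and 60.8% in column 9. The difference was 45.7 points on the plus strand and 9.79 points on the minus strand. At chr6:4747000-4747999, over ends of the paternally expressed genes Peg10 and Sgce, it was 42.6 points on the plus strand and 6.67 points on the minus strand, with 41.3% in column 6, a median of 55.9% and 68.1% in column 10. Both tiles thus took most of their range from a single strand.

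The Gnas tile, chr2:174284000-174284999, ran from 30.9% in column 4 through a median of 42.7% to 63.3% in column 1, and lay almost wholly on the minus strand with 17 of 18 positions. A tile by the end of Gnasas1, the antisense transcript of the same locus, at chr2:174295000-174295999, ran from 9.35% in column 9 to 37.0% in column 7. The tile by Nnat, a neuronal proteolipid gene inside Blcap, at chr2:157561000-157561999, ran from 38.7% in column 2 through a median of 49.8% to 69.8% in column 8. The remaining tiles, by Kcnq1 and Slc22a3, had medians of 14.2% and 20.6% and a single high column each, column 6 at 37.7% and column 2 at 42.2%. In both, the second highest column was under 25%.

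Inside imprinted genes and away from their ends, the widest range was at chr6:30738000-30738999, at 66.1 points. This tile holds a transcription start of Mest but lies more than 1000 bp from the gene's ends. Its level was 12.9% in column 5, a median of 44.8% and 79.0% in column 10. The 14 positions all lay on the plus strand, so the strands could not be set against each other. None of them lay in the Mest window printed above, and the lowest column had 140 summed reads. A tile inside Igf2, which encodes a fetal growth factor, at chr7:142654000-142654999, ran to 72.1% in column 3 from a lowest level in column 10, a range of 42.1 points, again on the plus strand alone.

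The widest ranges among well-read tiles, those with 300 or more reads in each column and both strands measured, were named for 12 tiles. The widest, 47.4 points, was chr8:21359000-21359999, 18518 bp from Defa2, at 29.0% in column 6, a median of 63.6% and 76.4% in column 9. The next lowest column was at 57.9%, so column 6 stood apart over both strands summed. Columns 9 and 6 differed by 52.7 points on the plus strand and 40.3 points on the minus strand. At chr9:89478000-89478999 column 6 was again lowest at 36.5%, with a median of 68.1% and 79.6% in column 7. Of the 12 tiles, 6 had a single column apart from the rest by Dixon's criterion, against 9.44% of variable and 7.18% of all eligible tiles. The 12 were chosen for wide ranges of these same levels, so the count describes them only.

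Among the 12 was a tile inside Elf5, a transcription factor gene of the trophoblast lineage whose promoter is known to be methylated in cells of the embryo proper. At chr2:103421000-103421999 the level was 24.98% in column 4, a median of 38.0% and 65.6% in column 2, with 37.3 points between them on the plus strand and 43.9 points on the minus strand. Column 2 exceeded column 4 at 18 of 19 positions, the positions on which the pair was chosen. The tile lies inside the gene and holds no transcription start. Plet1, a cell surface gene of the trophoblast, had a variable tile over its start, chr9:50494000-50494999, at 16.3% in column 5, a median of 36.1% and 62.6% in column 2, with 103 reads in its shallowest column.

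The other named tiles of this class inside genes lay in Ect2l, Pcnx, Rasal1, Daam2 and Cela1, a pancreatic elastase gene. Column 9 was the highest in Ect2l at 71.2%, in Pcnx at 73.7%, in Daam2 at 76.0% and in Cela1 at 71.2%. In Cela1 the second highest column was at 47.5%. In Rasal1, which encodes a Ras GTPase activator, column 4 was the highest at 70.02%. Of the 3 tiles outside genes not yet given, those on chromosome 18 had column 9 as the lowest near Ftmt, at 36.9%, and as the highest near Zfp608, at 69.7%. The same column thus stood at either end.

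**Figure D5:**
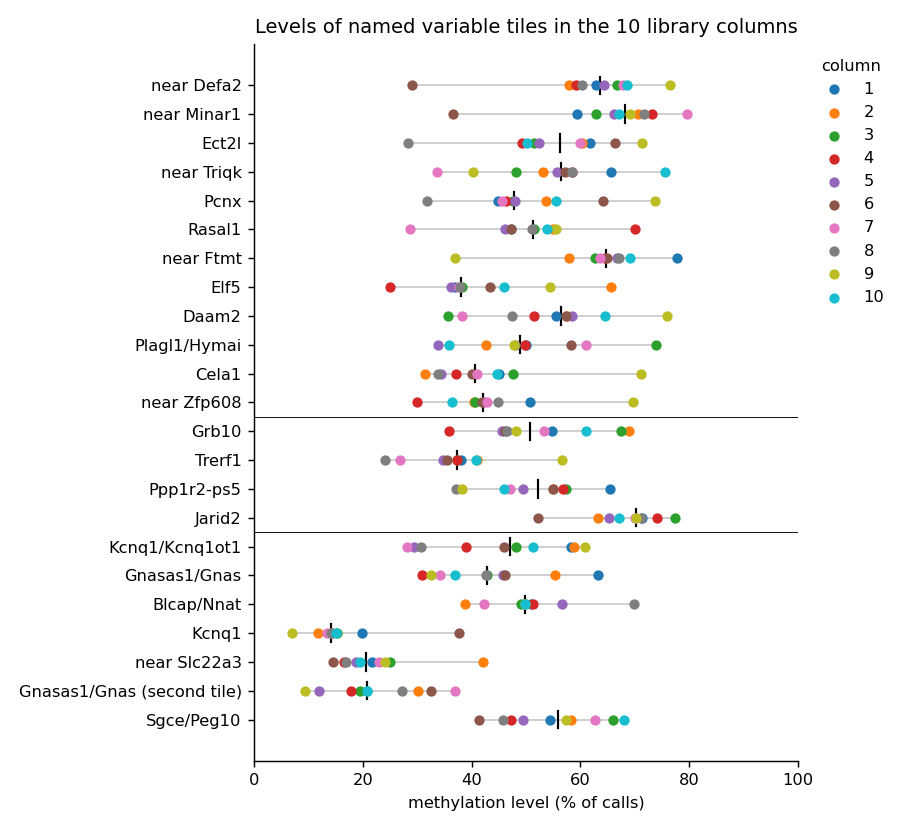
Methylation level (horizontal axis, percent of calls) of named variable tiles in each of the 10 library columns (colours); the black tick is the median and the grey line the range. From the top, the 12 widest ranges among well-read tiles, the 4 variable tiles with 1000 or more reads in each column, with Grb10 first, and 7 tiles at imprinted gene ends; the column at either end changes from tile to tile.

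Only 4 variable tiles had 1000 or more reads in each column. Beside Grb10 these lay inside Trerf1, a transcriptional regulator gene, by the pseudogene Ppp1r2-ps5, and inside Jarid2, which encodes an accessory protein of Polycomb repressive complex 2. Trerf1 ran from 24.04% in column 8 through a median of 37.3% to 56.7% in column 9, with 44 positions. Its strands differed by 47.8 points on the plus strand and 25.97 points on the minus strand. Ppp1r2-ps5 ran from 37.2% in column 8 to 65.5% in column 1, and its reads may be shared with near-identical copies. Jarid2 ran from 52.2% in column 6 to 77.3% in column 3, with 32.7 points on the plus strand and 4.80 points on the minus strand.

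The 3 widest ranges of all rested on few reads and 1 strand each. They were 75.3 points at chr4:21374000-21374999, 300866 bp from the nearest protein-coding gene, Prdm13, 69.1 points at chr13:103357000-103357999 by Gm5454, and 68.1 points at chr2:121715000-121715999 inside Frmd5. The first ran from 10.2% in column 8 through a median of 58.3% to 85.5% in column 2. Its shallowest column had 110 summed reads over 7 positions, and the other tiles had 128 and 102 reads in theirs. None of the 3 was measured on both strands.

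Other listed genes held single variable tiles. Germline genes had 4 of 50 eligible gene-end tiles variable, and 0 of 32 with 300 or more reads and an intermediate level. At those limits 3.14% of all gene-end tiles and 3.38% of all eligible tiles were variable, so 0 of 32 sets germline genes apart from neither. The Asz1 tile, chr6:18109000-18109999, ran from 46.4% in column 8 through a median of 60.6% to 77.0% in column 7, with its 13 positions on the minus strand. The others lay by Spo11, which encodes the meiotic double-strand break enzyme, by the piRNA factor gene Piwil1, and by Pnldc1 and Mrpl18. Their ranges were 30.4, 29.8 and 25.6 points.

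Pluripotency and gastrulation genes had 4 of 62 tiles variable, by Mixl1, Zfp42, Dppa4 and Pou5f1. The Mixl1 tile, by a gene of the primitive streak, ran from 22.8% in column 3 to 50.4% in column 6, by 37.5 points on the plus strand and 9.99 points on the minus strand. Pou5f1, the gene of the pluripotency factor OCT4, ran from 17.6% in column 9 through a median of 36.5% to 43.6% in column 2. Visceral endoderm and yolk sac genes had 4 of 33, by Sparc, Cer1, Lefty1 and Hnf4a, with ranges of 26.1 to 31.6 points. Trophoblast genes had 1 of 51, by Plet1.

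Blood and immune genes had 3 of 18 variable, by Lmo2, Kdr and Csf1r, with ranges of 30.8 to 35.8 points. Genes of arsenic metabolism and oxidative stress had 1 of 44, by the glucose transporter gene Slc2a1, at 42.5% in column 5 and at most 22.6% elsewhere. Genes of the methylation machinery had 1 of 37, by Mbd2, which encodes a methyl-CpG binding protein, from 60.7% in column 6 to 87.9% in column 2. No tile was variable of 14 by genes near variably methylated IAP elements, 20 of maternal decidua or 20 of the clustered protocadherins. At these numbers of tiles the counts are set beside the 4.64% of all gene-end tiles and the 9.16% of all eligible tiles. They are a description, and nothing particular to a list was read from them.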

How the data were processed

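Phenol-chloroform DNA of embryos went into RRBS libraries, per the labels' protocols. Build mm10 and the tools methylKit, Bismark and Trim Galore come from the submitters' processing notes, without versions or settings. As deposited, the counts are raw and stand per cytosine position and strand, namely coverage, methylated calls and unmethylated calls, per the file headers. These other, unnormalized values come as 30 count columns in 10 numbered sets, none of which matches a sample alone. They were used as library columns because the choice of tiles needs all 10, with no group comparison. Coverage was 10 reads or more everywhere, and 2 of 2137826 rows repeated a position and were left out.

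Calls were summed over 1000 bp tiles of the 2101419 autosomal positions. Genes came from a RefSeq table of GRCm38, the assembly of mm10. A gene end is a table end, with 1000 bp on each side. Of 284 listed genes, 276 were matched, older names through synonyms. No source used here names molecular identifiers, so PCR copies may be counted. Medians and ranges over columns are given, with no test. The tiles named are the 12 widest with 300 reads per column and both strands measured, the 3 widest, those at listed gene ends, the first 3 in genome order of the 5 longest runs, and 3 on either side of 25 points. Tiles with 1000 reads and those inside imprinted genes were added after the values were seen, as was the restriction to CpGs measured on both strands. The tiles and lists were chosen with earlier results of these data known. The tile and strand computations were tested on simulated data. Computations used pandas 2.3.3 and numpy 2.4.6 under Python 3.11.15.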

Additional observations from a re-analysis of the deposited data

Results flagged for a closer look

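In 13 of 50 measures examined over the 10 library columns, 1 column stood apart by Dixon's 95% criterion, which chance flags in about 1 of 20 groups. The tiles were chosen for a wide range, so more flags than that among them carry no weight of their own. Column 9 stood apart by how often it was the highest, in 23.9% of all variable tiles, against at most 14% for any other column, and in 34.7% of those with 500 or more reads, against at most 18.3%. Column 6 stood low at chr8:21359000-21359999, at 28.95%, and at chr9:89478000-89478999, at 36.53%. Column 8 stood low in Ect2l at 28.32%. Column 9 stood low at chr18:52255000-52255999, at 36.9%, and by Pou5f1 at 17.59%. It stood high in Cela1 at 71.22%, at chr18:54860000-54860999 at 69.73%, and in Trerf1 at 56.65%. Column 6 stood high in Kcnq1 at 37.67%, column 2 by Slc22a3 at 42.15%, and column 5 by Slc2a1 at 42.47%. In these tiles the flagged column had 215, 223 and 146 summed reads, and column 9 by Pou5f1 had 108. None of the Kcnq1, Slc22a3, Slc2a1 and Pou5f1 tiles met the limits for being measured on both strands. What sets these columns apart was not tested.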

How the results depend on the processing

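Without each library column in turn, the number of variable tiles was 8687 to 9979, against 10885, with column 9 left out giving the fewest. The share at an intermediate level was 98.0 to 98.2%, the share near gene ends 13.1 to 13.5%, the same direction on the other strand 54.4 to 55.5%, and next to a variable tile 61.4 to 64.3%. The number depended on the limits themselves. It was 3749 with 200 summed reads, 202 with 500 summed reads, 3064 with 10 positions, 27026 with 20 points and 1390 with 35 points. Between the second highest and second lowest column, an alternative chosen after seeing the data, it was 788. The intermediate share was 99.1%, 99.5%, 97.8%, 97.2% and 98.7% in the order of those 5 limits, 98.4% with tile starts shifted by 500 bp and 98.5% with 2000 bp tiles. The share near gene ends was 15.2% with 200 and 18.3% with 500 summed reads, 15.6% with 10 positions, 12.7% with 500 bp and 15.3% with 2000 bp tiles. The same direction on the other strand was 56.1% with 5 positions and 100 reads per strand, and 55.5% with CpGs measured on both strands alone, also chosen after seeing the data. The same direction beside a variable tile was 56.4% in the tile after the next, against 63.2% in the next tile. Column 9 was highest in 34.7% of variable tiles with 500 summed reads. No paired analysis was possible because the library columns carry no group and no test was made. Of all variable tiles, 41.8% had 100 to 150 reads in the shallowest column, where counting error is largest.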
